A study of Mus musculus with 8 samples.

Results

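Foxn1, Pax1, Pax9, Six4, Eya1, Trp63 and Isl1 are transcription factors, or partners of transcription factors, of the pharyngeal pouch and of the thymic epithelium that grows from it. These 7 genes were taken by symbol from the 27514 genes that all 8 single-cell matrices share, and all 7 were present in every matrix. The cells were thymic epithelial cells (TEC) sorted from wild-type C57 B6 (CD45.2) mouse thymus as DAPI-, EpCAM+ and CD45-. Cortical TEC (cTEC) also carried Ly51 and lacked UEA-1 binding, and medullary TEC (mTEC) had the converse profile. The groups were total TEC from the embryo at E13.5 (E marks the embryonic day), cTEC of E15.5, of E17.5 and of newborns (NB), with 1 library each, and adult cTEC and adult mTEC, with 2 libraries each. The labels give no adult age in weeks and no transgene or treatment, and they do not say whether replicates came from separate animals, so a p-value measures only the spread between these libraries. The E13.5 sort had no cortical gate, because the surface markers do not yet separate the lineages at that age. The libraries came in 2 data sets. Data set 1 held E13.5, E15.5, NB and replicate 1 of each adult group, and data set 2 held E17.5 and replicate 2 of each adult group.

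After the limits on mitochondrial reads and gene number, 25750 of 28334 deposited cells remained, between 507 and 8350 per library, with median depths of 3996 to 11386 unique molecular identifiers (UMIs, each standing for 1 captured transcript). Any pair of libraries shared between 0 and 84 cell barcodes. Markers of the sorted lineage were present in each library: the summed level of 8 cTEC markers was 2434 CPM (UMI counts scaled to a common library total) at E13.5, between 13238 and 28785 in the cTEC libraries and 1894 and 1607 in mTEC. Adult cTEC replicate 1 stood apart from its partner: its summed mTEC I marker level was 6432 CPM against 1428 in replicate 2, led by Ccl21a, and its myeloid marker level was 380 against 33.2. The adult mTEC libraries held 8547 and 4177 on the mTEC I markers, and 484 and 617 on the myeloid markers. Lyz2 was the highest myeloid marker in each adult library. The summed mesenchymal level was 511 and 318 in adult cTEC and 103 and 70.5 in adult mTEC, led by Dcn in each. Of its 8 markers, Col1a1, Pdgfra and Postn were at 0 in adult cTEC replicate 1, and Pdgfra and Pdgfrb in replicate 2. The part of these markers in the values of the 7 factors was not tested. Differences of the 7 factors between the adult lineages are given with and without adult cTEC replicate 1.

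As background, the thymus arises from the third pharyngeal pouch, where Hoxa3, Pax1, Pax9 and the Eya and SIX-family proteins act before the organ can be seen. Foxn1, the forkhead factor lost in nude mice, then turns pouch epithelium into TEC that attract and instruct lymphocyte progenitors, and BMP and WNT signals act upstream of it. Pax1 and Pax9 are paired-box factors. Eya1 is a co-activator that works with SIX-family homeodomain proteins such as Six4. Trp63 encodes p63, which maintains stratified epithelia and their progenitors, and Isl1 is a LIM-homeodomain factor of pharyngeal endoderm and several other embryonic tissues.

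The 250 bases before the start site are shown for Foxn1, for the 2 factors here whose window holds the GACGC core known for Foxn1 binding, and for Psmb11, a thymoproteasome subunit and direct Foxn1 target whose mRNA is used here as a measure of cortical character. Sequences are from RefSeq on GRCm38.p6 and read 5′ to 3′ on the gene's strand. The Pax1 window belongs to a RefSeq start site that lies inside the annotated Pax1 gene, downstream of the start of its span in GENCODE. Capitals mark GACGC or its reverse complement GCGTC. The windows lie at chr11:78386609-78386858 (minus strand), chr2:147364744-147364993 (plus strand), chr13:116309689-116309938 (minus strand) and chr14:54625060-54625309 (plus strand).
Foxn1: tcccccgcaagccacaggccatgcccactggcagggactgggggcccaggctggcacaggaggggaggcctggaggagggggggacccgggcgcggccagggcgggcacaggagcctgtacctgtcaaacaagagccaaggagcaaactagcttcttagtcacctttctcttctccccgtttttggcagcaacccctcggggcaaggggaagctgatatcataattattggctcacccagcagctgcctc
Pax1: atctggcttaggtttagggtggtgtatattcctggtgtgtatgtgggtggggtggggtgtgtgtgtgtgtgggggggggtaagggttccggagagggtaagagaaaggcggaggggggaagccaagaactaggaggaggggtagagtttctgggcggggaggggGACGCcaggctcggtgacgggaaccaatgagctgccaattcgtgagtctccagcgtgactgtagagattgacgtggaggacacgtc
Isl1: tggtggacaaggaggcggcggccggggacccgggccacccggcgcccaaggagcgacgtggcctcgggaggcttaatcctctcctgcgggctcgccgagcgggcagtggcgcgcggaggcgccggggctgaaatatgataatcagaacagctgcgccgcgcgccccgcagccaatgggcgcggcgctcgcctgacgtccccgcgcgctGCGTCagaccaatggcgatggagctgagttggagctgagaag
Psmb11: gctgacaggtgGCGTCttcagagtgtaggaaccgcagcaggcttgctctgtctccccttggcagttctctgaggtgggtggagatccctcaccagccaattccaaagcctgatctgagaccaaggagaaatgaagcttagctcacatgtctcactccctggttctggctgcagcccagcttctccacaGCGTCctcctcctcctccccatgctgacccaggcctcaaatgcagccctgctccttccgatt
The core, searched on both strands, occurred in 7423 of 32851 promoter windows of this length, or 22.6%. It was found at -86 in Pax1, at -42 in Isl1 and at -239 and -62 in Psmb11, counted from the start site, and also in the windows of Ccl25 (1 of its 2 windows), Cxcl12 and Kitl. The letters were not in the windows of Foxn1, Pax9, Six4 or Dll4, which says only that they are not in these stretches. Eya1 and Trp63 had no entry.

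The genes were matched to the annotation by their Ensembl identifiers. On GRCm38 (GENCODE vM21) Foxn1 (ENSMUSG00000002057) spans chr11:78357577-78386558 on the minus strand with 9 exons, Pax1 (ENSMUSG00000037034) chr2:147361925-147393295 on the plus strand, Pax9 (ENSMUSG00000001497) chr12:56691767-56712822 on the plus strand and Six4 (ENSMUSG00000034460) chr12:73099609-73113456 on the minus strand. Eya1 (ENSMUSG00000025932) spans chr1:14168954-14310235 on the minus strand with 18 exons, Trp63 (ENSMUSG00000022510) chr16:25683763-25892102 on the plus strand with 14 exons, and Isl1 (ENSMUSG00000042258) chr13:116298281-116309689 on the minus strand. Pax1 and Pax9 each have an antisense gene on the opposite strand, AI646519 and Gm15524, and Pax9 also overlaps Slc25a21 there. All 3 neighbours were counted as genes of their own. Gm37444 on the strand of Eya1 and Gm27005 on that of Trp63 also overlap these genes. Both are absent from the genes used, and their part in the counts was not tested. Levels are UMI counts in CPM, and a level set across data sets carries the data set with it. An E13.5 level set beside a cTEC level also carries the lack of a cortical gate at E13.5. Levels come from transcript ends and are not scaled by length, so they are compared between libraries and not between genes. Ranges in brackets after a level or fold are 95% intervals for counting error only.

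Foxn1 mRNA was present in all 8 libraries, peaked at E15.5 and was lowest in adult mTEC. Its level was 89.5 CPM (84.7 to 94.5) in the E13.5 library, 142 CPM (137 to 146) in the E15.5 library, 113 CPM (111 to 115) in the E17.5 library and 97.7 CPM (93.7 to 102) in NB cTEC. Adult cTEC held 100 CPM (87.2 to 114) in replicate 1 and 79.2 CPM (70.8 to 88.4) in replicate 2, and adult mTEC held 41.4 CPM (38.4 to 44.7) and 50 CPM (48.4 to 51.8). The E15.5 value lay above every other and both mTEC values below every other, while each neighbouring pair from E17.5 through adult cTEC replicate 1, NB and E13.5 to adult cTEC replicate 2 overlapped in its intervals. Within data set 1, Foxn1 was 1.58-fold (1.49 to 1.69) higher at E15.5 than at E13.5 and then 1.45-fold lower in NB than at E15.5, and adult replicate 1 stood at 1.02 times the NB level (0.887 to 1.18). Within data set 2, adult cTEC replicate 2 was 1.43-fold below E17.5.

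Depth differed between libraries, so the share of cells with a Foxn1 UMI was also taken after thinning each cell to 2000 UMIs, which left out 0 to 123 cells per library. The thinned share of cells with Foxn1 was 15.9% in the E13.5 library, 23.6% in the E15.5 library, 20.3% in the E17.5 library, 16.8% in NB cTEC, 17.1% and 13.4% in adult cTEC and 7.0% and 8.83% in adult mTEC. The order from E15.5 and E17.5 at the top to mTEC at the bottom was that of the CPM. Without thinning, the share of cells with Foxn1 ran from 27.3% in adult cTEC replicate 1, the shallowest library, to 64.6% at E17.5. For the other factors the unthinned shares ran from 35.6% to 99.3% for Pax1, 35.2% to 69.0% for Pax9, 8.15% to 32.1% for Six4, 14.3% to 48.5% for Eya1, 18.5% to 82.0% for Trp63 and 24.2% to 57.6% for Isl1. In a droplet library free RNA also gives UMIs. The thymocyte-like NB cells were meant to give that background, but these 168 cells held 14.3% with Foxn1 against 16.8% of the other NB cells and 367 CPM of Epcam against 596, and free RNA and RNA of epithelial cells among them cannot be told apart. The share of NB cells with Foxn1 is therefore not separated from background, and the corresponding share was not measured in the other cTEC and mTEC libraries. At E13.5, none of 124 parathyroid-like cells held Foxn1 after thinning, which allows a share of cells with a UMI, not of expressing cells, of up to 2.42%, at a median depth of 4266.5 UMIs; without thinning it was 2.42%, against 45.9% of the E13.5 cells outside both side clusters, whose median depth was 7316.5.

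**Figure D1:**
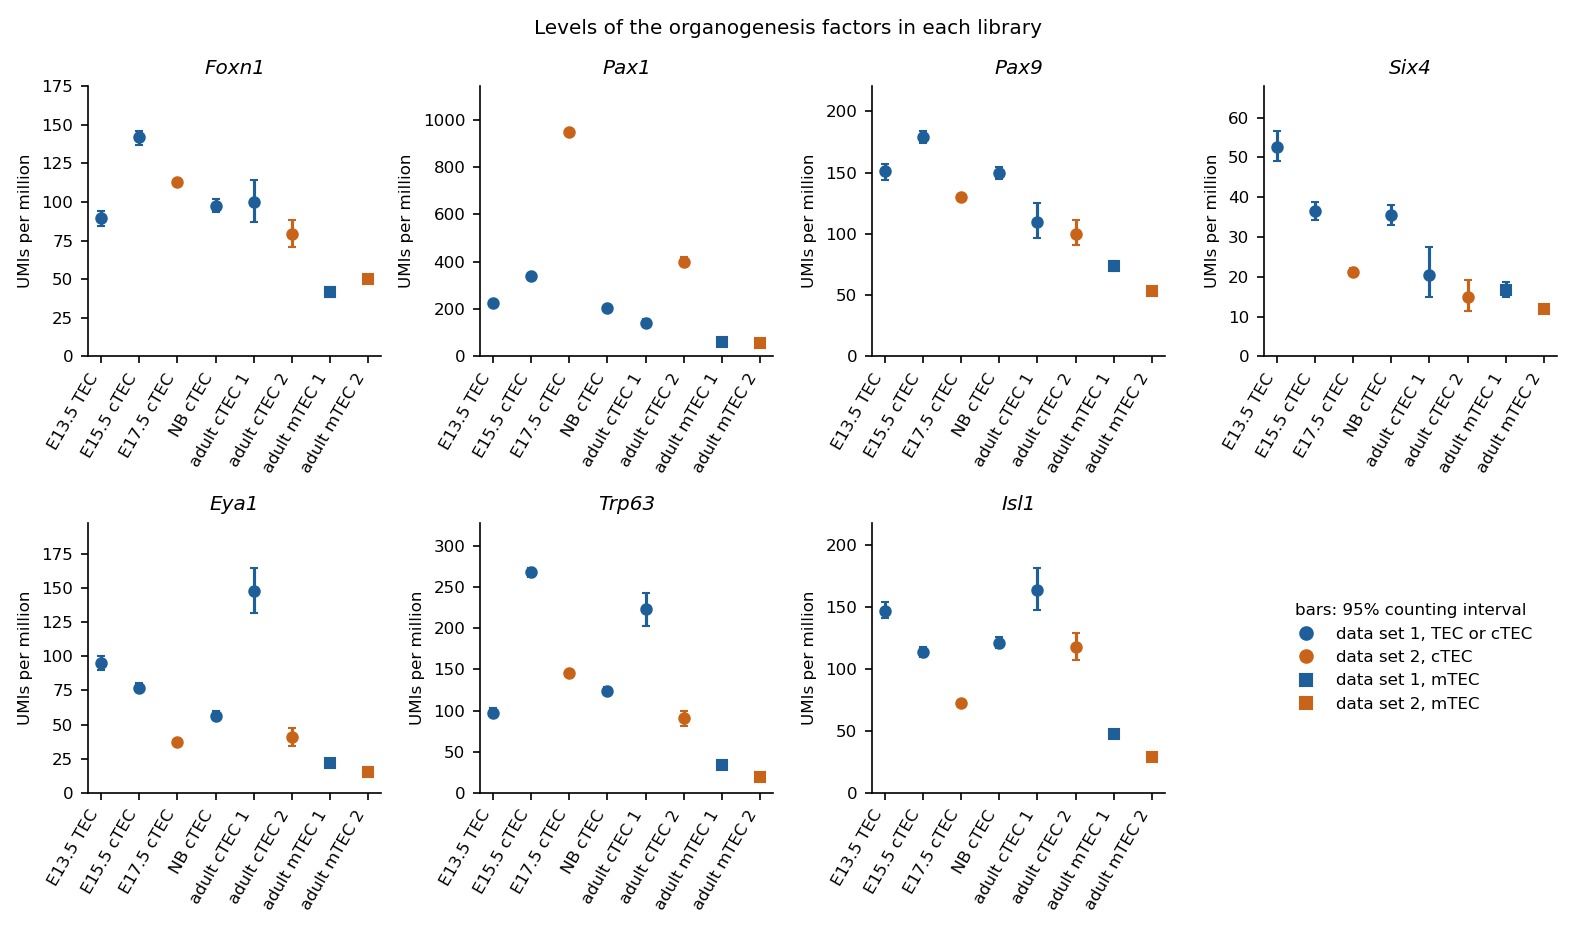
Level of each factor in each of the 8 libraries in CPM, with bars for the 95% counting interval, circles for TEC and cTEC, squares for mTEC, blue for data set 1 and orange for data set 2. Foxn1 peaks at E15.5 with 142, Pax1 at E17.5 with 947, and the mTEC squares are the lowest for every factor but Six4.

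The paired-box genes differed in how far they moved. Pax1 was 227 CPM in the E13.5 library, 338 CPM in the E15.5 library, 947 CPM (940 to 953) in the E17.5 library and 204 CPM in NB cTEC. In the adult, Pax1 was 141 CPM (125 to 157) and 399 CPM (380 to 419) in cTEC and 60.3 CPM (56.6 to 64.1) and 56.7 CPM (54.9 to 58.6) in mTEC. The E17.5 library was far above the rest, and the 2 adult cTEC libraries differed 2.84-fold while the mTEC pair overlapped. E17.5 and adult replicate 2, the 2 highest, both belong to data set 2, so for cortical cells age and data set cannot be told apart in that order. Within data set 1, Pax1 was 1.49-fold higher at E15.5 than at E13.5 and 1.66-fold lower in NB than at E15.5. Adult replicate 1 was then 1.45-fold below NB. Within data set 2, adult cTEC replicate 2 was 2.37-fold below E17.5. Thinned to equal depth, 82.5% of E17.5 cells held Pax1 against 48.2% at E15.5, 50.2% in adult cTEC replicate 2 and 21.8% in replicate 1.

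Pax9 stayed between 100 and 179 CPM over the cortical stages. It was 151 CPM in the E13.5 library, 179 CPM in the E15.5 library, 130 CPM in the E17.5 library and 150 CPM in NB cTEC. Adult values were 110 and 100 CPM in cTEC and 73.5 and 53.1 CPM in mTEC. E15.5 was highest and the 2 mTEC libraries lowest, E13.5 and NB were alike within counting error, and so were the 2 adult cTEC libraries. The thinned share of cells with Pax9 went from 29.1% at E15.5 to 16.2% and 17.6% in adult cTEC.

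Of the Eya1 and Six4 partners, Six4 was highest at E13.5 and Eya1 in an adult library. Six4 was 52.7 CPM in the E13.5 library, 36.5 CPM in the E15.5 library, 21.2 CPM in the E17.5 library and 35.4 CPM in NB cTEC. In the adult, Six4 was 20.5 and 14.9 CPM in cTEC and 16.7 and 12.0 CPM in mTEC. E13.5 stood above all, E15.5 and NB overlapped in their intervals, and the 4 adult libraries and E17.5 formed a chain of overlapping neighbours. Within data set 1, Six4 was 1.45-fold lower at E15.5 than at E13.5, and adult cTEC replicate 1 was 1.73-fold below NB.

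Eya1 was 94.9 CPM in the E13.5 library, 77.0 CPM in the E15.5 library, 37.0 CPM in the E17.5 library and 56.6 CPM in NB cTEC. Adult cTEC held 148 CPM in replicate 1, the highest of all libraries, and 40.6 CPM in replicate 2, while mTEC held 21.5 and 15.3 CPM. The adult cTEC pair differed 3.65-fold, so the adult level of Eya1 relative to the fetal one depends on which library is taken: replicate 1 was 2.62-fold above NB, and replicate 2 was 1.1 times E17.5 (0.932 to 1.28). The thinned share of cells with Eya1 was 26.5% and 11.3% in the 2 adult cTEC libraries and 18.5% at E13.5. Adult cTEC replicate 1 was also the library with raised mTEC I markers, and their part in its Eya1 value was not tested.

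Trp63 had its highest level at E15.5. It was 97.4 CPM in the E13.5 library, 268 CPM in the E15.5 library, 146 CPM in the E17.5 library and 124 CPM in NB cTEC. Adult cTEC held 223 and 90.6 CPM, and adult mTEC held 34.3 and 19.3 CPM. E15.5 was 2.75-fold (2.60 to 2.91) above E13.5, the largest of the 7 ratios between these libraries, and NB was 2.16-fold below E15.5. The E13.5 library and adult cTEC replicate 2 overlapped in their intervals. The adult cTEC pair again differed, by 2.46-fold, with replicate 1 at 1.79 times NB. Thinned shares of cells with Trp63 went from 17.2% in the E13.5 library to 40.7% by E15.5 and were 33.6% and 18.8% in adult cTEC.

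Isl1 was lowest in the cortical line at E17.5. It was 147 CPM in the E13.5 library, 114 CPM in the E15.5 library, 72.3 CPM in the E17.5 library and 121 CPM in NB cTEC. Adult cTEC held 164 and 118 CPM and adult mTEC 47.7 and 29.3 CPM. Adult cTEC replicate 1 and E13.5 overlapped at the top, NB, adult cTEC replicate 2 and E15.5 followed as overlapping neighbours, and E17.5 and then the mTEC libraries stood below. Within data set 2, adult cTEC replicate 2 was 1.63-fold above E17.5, the lowest cortical library, and within data set 1, replicate 1 was 1.36-fold above NB.

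**Figure D2:**
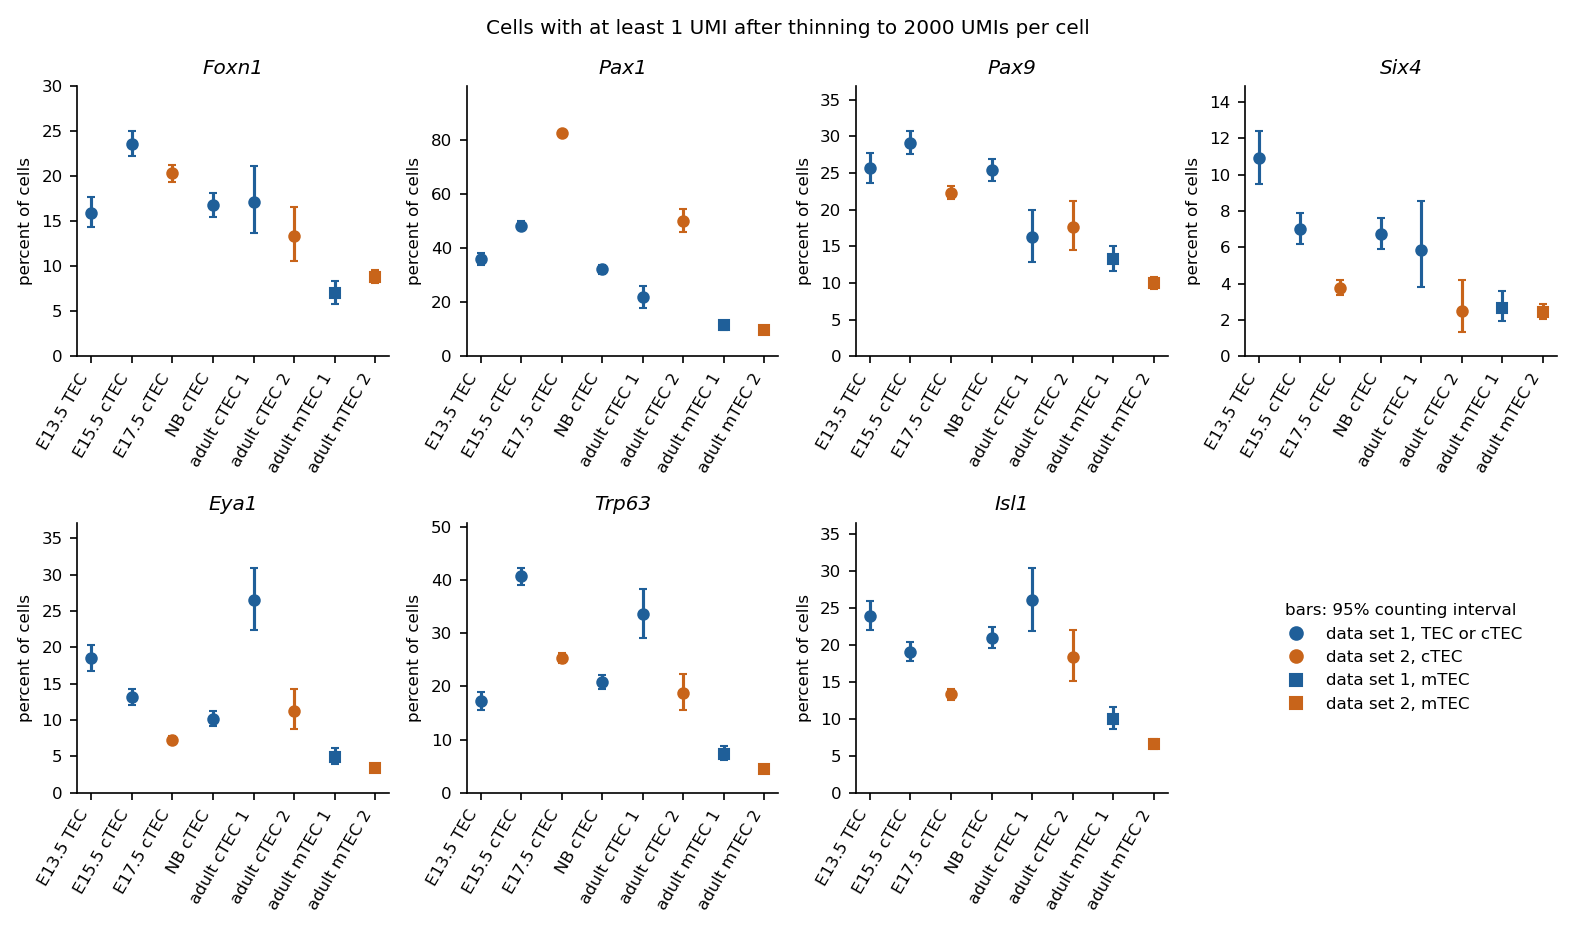
Percent of cells with at least 1 UMI of each factor after thinning to 2000 UMIs per cell, by library, with the 95% counting interval and the same symbols as in the plot of levels. Pax1 reaches 82.5% at E17.5, and Trp63 goes from 17.2% in the E13.5 library to 40.7% by E15.5.

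Whether the factors changed steadily with age was tested by a slope over the 5 stages from E13.5 to adult in the 6 cortical-line libraries, with the data set as a term and 3 residual degrees of freedom. None of the 7 slopes passed the threshold of 0.05 on the adjusted p of edgeR's quasi-likelihood test, which adjusts by Benjamini-Hochberg over all genes tested. 1 of the 7, Six4, had an unadjusted p under 0.05, and DESeq2 called 0 of them. Of all 14339 genes tested, 7.20% were called, 4.49% rising and 2.71% falling.

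Six4 had a slope of -0.26 on the log2 scale per stage (SE 0.09, 95% interval -0.47 to -0.05, edgeR adjusted p = 0.12). The slope of Pax1 was -0.30 (SE 0.13, interval -0.62 to 0.02, edgeR adjusted p = 0.21). The slope of Foxn1 was -0.08 (SE 0.11, interval -0.34 to 0.18, edgeR adjusted p = 0.69), so the fit allows a decline or a gain of about these sizes per stage. For the other factors the slopes were -0.13 for Pax9, 0.10 for Eya1, 0.01 for Trp63 and 0.09 for Isl1, and each 95% interval spanned 0. A straight slope cannot follow the peak at E15.5 in Foxn1, Pax9 and Trp63 that the levels show. Without the E13.5 library, which had no cortical gate, Pax1 passed with a slope of -0.51 (SE 0.13, edgeR adjusted p = 0.041), while the slope of Foxn1 was -0.24 (interval -0.49 to 0.02), that of Pax9 -0.24 and that of Isl1 0.18, and none of these 3 passed. With cells of low proliferation score only, the slope of Foxn1 was -0.17 (interval -0.37 to 0.03). Without the data set term the slope of Pax1 was -0.09 (SE 0.34), and without adult cTEC replicate 1 the slope of Eya1 turned to -0.14 and that of Trp63 to -0.14.

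The adult lineages were compared next. All factors but Six4 had both cTEC libraries above both mTEC libraries, 6 of 7, where 30.4% of the 15626 genes tested had that order in CPM. By edgeR, Pax1, Eya1, Trp63 and Isl1 were higher in cTEC, 4 of 7, and 0 were lower. Of all genes tested 33.8% were called in either direction, 11.8% higher in cTEC and 22.0% lower. DESeq2 called the same 4, and 2601 of 23890 genes in all. The fit had 1 residual degree of freedom, so its spread is mostly borrowed from other genes, and in summed counts fewer cells of a type and less RNA per cell cannot be told apart.

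Trp63 had the largest fitted difference of the 7, though Eya1 had the larger ratio in data set 1 and Pax1 in data set 2 and without adult cTEC replicate 1 or adult mTEC replicate 2. Adult means of Trp63 were 157 ± 93.3 CPM in cTEC and 26.8 ± 10.6 CPM in mTEC (SD, n = 2 each), and the log2 difference was 2.39 (SE 0.40, edgeR adjusted p = 4.0e-08), or 5.25-fold. Eya1 was 94.3 ± 76.0 CPM against 18.4 ± 4.40 CPM (SD, n = 2 each), a log2 difference of 2.03 (SE 0.40, edgeR adjusted p = 4.7e-06). Pax1 was 270 ± 183 CPM against 58.5 ± 2.51 CPM (SD, n = 2 each), a log2 difference of 1.96 (SE 0.41, edgeR adjusted p = 2.3e-05). In each of these 3 genes the cTEC pair spread more widely than the mTEC pair. Isl1 was 141 ± 32.9 CPM against 38.5 ± 13 CPM (SD, n = 2 each), a log2 difference of 1.83 (SE 0.39, edgeR adjusted p = 3.1e-05).

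Foxn1 itself did not pass. It was 89.7 ± 14.8 CPM in cTEC and 45.7 ± 6.08 CPM in mTEC (SD, n = 2 each), a log2 difference of 0.89 (SE 0.38, 95% interval 0.14 to 1.64, edgeR adjusted p = 0.056), or 1.86-fold. Foxn1 was higher in cTEC within both data sets, 2.41-fold (2.06 to 2.82) in data set 1 and 1.58-fold (1.41 to 1.78) in data set 2, and the groups did not overlap. It passed when all deposited cells or cells of low proliferation score were used. Its adjusted p rose to 0.54 without adult mTEC replicate 1, and was 0.14 by DESeq2. Pax9 was 1.5-fold and 1.89-fold higher in cTEC within the data sets, with a log2 difference of 0.68 (95% interval -0.07 to 1.44, edgeR adjusted p = 0.16). Six4 was 1.23-fold higher in each, with counting intervals of 0.873 to 1.69 and 0.932 to 1.60 and an edgeR adjusted p of 0.72.

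The sizes differed between data sets where adult cTEC replicates differed. Pax1 was 2.33-fold higher in cTEC than in mTEC in data set 1 and 7.04-fold in data set 2. Eya1 was 6.89-fold and 2.66-fold higher, the opposite order. Trp63 was 6.49-fold and 4.69-fold higher and Isl1 3.44-fold and 4.02-fold. Whether these effects differed between data sets was not tested, since each data set holds 1 library per lineage. With 1 library left out, the fit could hold no data set term, and the lone library of its lineage is assumed to vary like the other lineage, so such a fit compares best with the one on all 4 libraries without that term, which also called Pax1, Eya1, Trp63 and Isl1. One lineage then has a single library, so effect sizes are given for the factors here. Without adult cTEC replicate 1, the log2 differences were 2.78 for Pax1, 1.78 for Trp63, 1.63 for Isl1 and 1.16 for Eya1. Those of Foxn1, Pax9 and Six4 were 0.79, 0.68 and 0.06. Without adult cTEC replicate 2, Pax1 had a log2 difference of 1.08. Without adult mTEC replicate 2, Eya1 and Isl1 had log2 differences of 2.02 and 1.49.

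**Figure D3:**
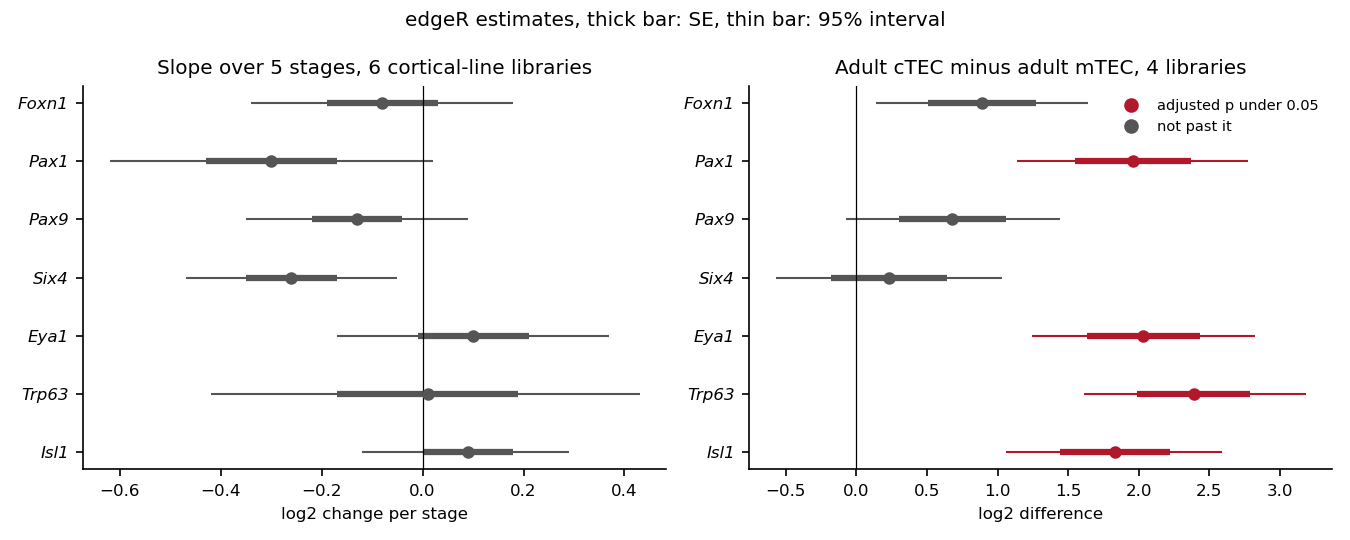
Left, the fitted log2 change per stage of each factor over the 6 cortical-line libraries; right, the fitted log2 difference of adult cTEC from adult mTEC over 4 libraries. Points are edgeR estimates, thick bars the SE, thin bars the 95% interval, and red marks an adjusted p under 0.05: no slope is red, and Pax1, Eya1, Trp63 and Isl1 are red on the right, with Foxn1 at 0.89.

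All 8 targets of Foxn1 on the list were higher in adult cTEC than in adult mTEC, where 33.8% of all genes tested were called and 11.8% were higher. Psmb11, Prss16, Ccl25, Dll4 and Cxcl12 among them are also cTEC markers. Over the 8, the median log2 difference was 3.58 against -0.14 over all genes tested. Psmb11 was 660 and 1395 CPM in adult cTEC and 3.85 and 8.57 CPM in mTEC, a log2 difference of 7.31 (SE 0.52). Cxcl12, a chemokine that retains progenitors, had a log2 difference of 6.18, and Prss16, the thymus-specific serine protease, 5.91. Kitl (stem cell factor, 3.73), the chemokine Ccl25 (3.44), Cd83 (3.05) and the Notch ligand Dll4 (2.60) followed. Without adult cTEC replicate 1, 7 of the 8 were called, and 2874 of 17702 genes in all. The cytokine Il7 had the smallest difference, 1.11 (edgeR adjusted p = 0.018), and was the only one of the 8 that DESeq2 did not call. Over the stages, 0 of the 8 targets passed in edgeR, where 7.20% of all genes tested did, with 0 at an unadjusted p under 0.05 and 0 by DESeq2, so the count is near the share over all genes, and the median slope was 0.18 against 0.00 over all genes. Psmb11 was 239 CPM in the E13.5 library and 1365 CPM at E15.5, and Ccl25 was 620 and 2167 CPM. Il7 was 267 and 355 CPM and Kitl 72.5 and 79.7 CPM, where Foxn1 was 1.58-fold higher at E15.5. Only the E15.5 cells were sorted with a cortical gate, so age and gate cannot be told apart here.

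Of 13 other genes of the EYA, SIX-family, DACH and pouch set, 4 were higher in adult cTEC, 0 lower and 9 did not pass, with a median log2 difference of 0.67, where 33.8% of all genes tested were called and 11.8% were higher. These calls rest on 2 cTEC libraries, of which replicate 1 stood apart. Six2, a homeobox partner of Eya proteins, was 54.5 and 42.8 CPM in cTEC and 16.3 and 9.25 CPM in mTEC (log2 difference 1.91, SE 0.41, edgeR adjusted p = 3.0e-05). Hoxa3, which patterns the third pouch, was 7.91 and 16.6 CPM against 3.73 and 1.75 CPM (log2 difference 2.19, SE 0.57). The homeodomain cofactor Meis1 had a log2 difference of 2.03. Eya2 did not pass (log2 difference 0.22). Over the stages, 0 of the 13 passed in edgeR, where 7.20% of all genes tested did, so the count is near that share. Of the 13, 1 had an unadjusted p under 0.05. DESeq2 called 0 of them, and 2736 of 20670 genes in all. Gata3 was 68.0 CPM in adult cTEC replicate 1 and 2.23 CPM in replicate 2.

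Among 14 basal epithelial genes that depend on p63, the keratin genes Krt14 and Krt5 were lower in adult cTEC, opposite to Trp63, while Krt15 did not pass (log2 difference -0.85, edgeR adjusted p = 0.10). Krt14 was 295 and 194 CPM in adult cTEC and 1087 and 619 CPM in mTEC (log2 difference -1.85, SE 0.40), and Krt5 had a log2 difference of -1.19. Jag2, a Notch ligand (2.25), Dst, a hemidesmosome linker (1.79), Fgfr2, a receptor for mesenchymal growth factors (1.23), and the cadherin Cdh3 (1.09) were higher in cTEC. In all, 4 of the 14 were higher, 3 lower and 7 did not pass, with a median of 0.07, where 11.8% of all genes tested were higher and 22.0% lower. DESeq2 called 5 of the 14, and 2601 of 23890 genes in all. The fit without the data set term called 3, and 4219 of 15626 genes in all. All these calls rest on 2 cTEC libraries that differed. With stage, Krt14 rose by 0.96 per stage (SE 0.20, edgeR adjusted p = 0.047) and the integrin Itga6 by 0.37 (SE 0.07, edgeR adjusted p = 0.034), 2 of 14, where 7.20% of all genes tested were called. Krt14 was between 20.7 and 34.2 CPM in the libraries up to NB and 295 and 194 CPM in adult cTEC, where the summed mTEC I markers, 251 to 906 CPM up to NB, were 6432 and 1428 CPM; their part in this slope was not tested. Without adult cTEC replicate 1, 0 of the 14 slopes passed, where only 15 of 14132 genes tested did. Without replicate 2, 0 of the 14 passed, where 468 of 15454 genes did.

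Of the 7 relatives and upstream signals of Foxn1, 6 could be tested between the adult lineages. Bmp4 was 8.38 and 6.44 CPM in cTEC and 0.120 and 0.208 CPM in mTEC, from 2 and 14 UMIs, and was called higher in cTEC (edgeR adjusted p = 1.5e-07). No fold is given, since the first mTEC value lies under that library's limit of 0.180 CPM for 3 UMIs. Wnt4 was 151 and 498 CPM against 34.7 and 121 CPM (log2 difference 2.01, edgeR adjusted p = 5.7e-06). Both encode signals that can raise Foxn1 in TEC. Adult cTEC also held the higher summed mesenchymal marker level, led by Dcn, and its part in Bmp4 was not tested. Fgf8 was called lower in cTEC but rests on 0 UMIs in both cTEC libraries, whose limits of 1.40 and 0.743 CPM stand beside 1.14 and 1.35 CPM in mTEC, so no fold is given. Foxn2, Foxn3 and the receptor gene Bmpr1a did not pass. In all 3 of the 6 were called, where 33.8% of all genes tested were, and these calls rest on the same 2 cTEC libraries. DESeq2 called Wnt4 and Bmp4 and not Fgf8. Over the stages 5 could be tested, and 0 passed in edgeR, where 7.20% of all genes tested did, so the count is near that share. None had an unadjusted p under 0.05. DESeq2 called 0 of them, and 2736 of 20670 genes in all.

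At E13.5 the sort took in all DAPI-, EpCAM+ and CD45- cells, and 2 small clusters stood beside the TEC. Of 1981 cells, 124 formed a parathyroid-like cluster led by Pth, and 105 formed a cluster led by Hhex and Nkx2-1. Both of these genes are on the list of thyroid markers, as is Pax8, another leading gene of that cluster. It also carried 4 of 8 mesenchymal markers and was left unnamed as mixed. The parathyroid, like the thymus, comes from the third pouch. The clusters were built on expression in these cells, so the values describe them and were not tested. The parathyroid-like cells were left out of the levels and fits above. The Hhex and Nkx2-1 cluster was kept in them, so the E13.5 values above include its cells.

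Foxn1 and Trp63 set the thymic cells apart from both side clusters, and Pax9 and Isl1 set the side clusters apart from each other. Foxn1 was 10.3 CPM in parathyroid-like cells, 9.11-fold (4.17 to 24.9) below the 93.7 CPM of the remaining 1752 cells. In the Hhex and Nkx2-1 cluster it was 2.98 CPM from only 2 UMIs, so no fold is given. Trp63 was 10.3 CPM in parathyroid-like cells, 1.49 CPM in the Hhex and Nkx2-1 cluster, from 1 UMI, and 102 CPM in the remaining cells. Pax9 was 317 CPM in parathyroid-like cells, 2.03-fold (1.74 to 2.36) above the remaining cells at 156 CPM, and 32.8 CPM in the Hhex and Nkx2-1 cluster. Isl1 had the reverse order of these clusters, at 20.6 CPM in parathyroid-like cells and 173 CPM in the Hhex and Nkx2-1 cluster against 146 CPM in the remaining cells.

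Pax1 was graded, at 238 CPM in the remaining cells, 85.7 CPM in parathyroid-like cells and 13.4 CPM in the Hhex and Nkx2-1 cluster, 17.7-fold (9.32 to 38.8) below the first. Eya1 differed least, at 96.0, 105 and 71.6 CPM in the same order, and Six4 was 54.0, 34.3 and 25.4 CPM. After thinning, 50% of parathyroid-like cells held Pax9 against 26.8% of the remaining cells, and 29.5% of the Hhex and Nkx2-1 cluster held Isl1 against 2.42% of parathyroid-like cells. Without thinning the shares were 76.6% and 61.2% for Pax9 and 51.4% and 8.06% for Isl1. Trp63 was in 0 of 105 cells of the Hhex and Nkx2-1 cluster, which allows a share of cells with a UMI, not of expressing cells, of up to 2.86%, and in 18.2% of the remaining cells. The median depth was 4266.5 UMIs in parathyroid-like cells, 5577.0 in the Hhex and Nkx2-1 cluster and 7316.5 in the remaining cells.

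**Figure D4:**
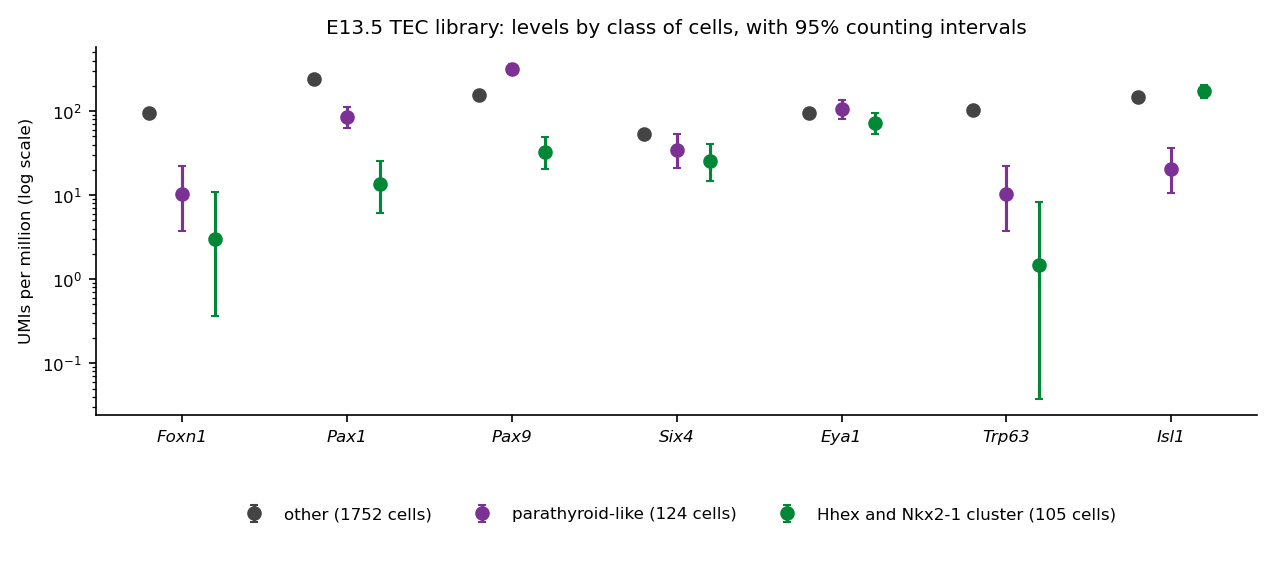
Level of each factor within the E13.5 library in CPM on a log axis, with 95% counting intervals, for 124 parathyroid-like cells, 105 cells of the Hhex and Nkx2-1 cluster and the 1752 other cells. Foxn1 and Trp63 are highest in the other cells, Pax9 in parathyroid-like cells at 317, and Isl1 is lowest in parathyroid-like cells at 20.6.

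Within a library, cells in which Psmb11 or Prss16 was detected, the cortical products downstream of Foxn1, were set beside cells with neither. Foxn1 was higher where they were detected: 100 against 36.5 CPM at E13.5 (2.75-fold, 2.21 to 3.45), 121 against 40.1 CPM in adult cTEC replicate 1 (3.01-fold, 1.93 to 4.92) and 88.9 against 20.9 CPM in replicate 2 (4.26-fold, 2.40 to 8.33). Pax1 differed the same way, by 1.98-fold, 2.13-fold and 1.99-fold. Trp63 was 2.09-fold higher in such cells at E13.5, but in the adult it was 0.959 (0.781 to 1.19) and 0.938 (0.702 to 1.27) of the level in cells with neither. Isl1 was 1.13 times that level at E13.5 and 0.933 and 0.962 of it in the adult. Eya1 was 1.04 times as high at E13.5 and 0.738 (0.580 to 0.944) in adult cTEC replicate 1, and Pax9 was 1.23 (1.09 to 1.39) at E13.5, 1.16 (0.855 to 1.61) in replicate 1 and 0.676 (0.528 to 0.874) in replicate 2. Six4 was 1.27 times as high (1.03 to 1.57) at E13.5. The cells with neither numbered 342 of 1857 at E13.5, 167 of 491 in adult cTEC replicate 1 and 109 of 535 in replicate 2. The summed mTEC I markers were 6432 and 1428 CPM in these adult libraries, and the part of medullary cells in the adult folds was not tested. Of the 342 at E13.5, 85 belonged to the Hhex and Nkx2-1 cluster. With that cluster left out, a step added after seeing the data, the E13.5 folds were 2.24 (1.80 to 2.83) for Foxn1, 1.63 for Pax1, 1.67 for Trp63, 1.17 (1.02 to 1.34) for Isl1, 1.04 (0.916 to 1.18) for Pax9 and 1.15 (0.922 to 1.45) for Six4.

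Per cell and at equal depth, Psmb11 was found in 45.4% of E13.5 cells with a Foxn1 UMI and in 29.2% of cells without one. In adult cTEC the shares with Psmb11 were 64.4% against 32.9% in replicate 1 and 67.1% against 54.6% in replicate 2. At E15.5 nearly all cells held it, 87.0% against 83.7%. Pax1 was in 43.4% against 34.6% of cells at E13.5, but in 16.4% against 22.9% in adult cTEC replicate 1 and in 58.6% against 48.9% in replicate 2. Isl1 was in 5.71% (1.58 to 14.0) against 20.4% (16.7 to 24.4) of cells in adult cTEC replicate 2, and in 27.4% against 25.8% in replicate 1. In adult mTEC replicate 2, Pax1 was in 6.19% against 10.2%. Pax9 showed no such difference beyond 2.21 percentage points in any library. In sparse counts such shares are descriptions.

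In adult mTEC, Foxn1 was lower in mTEC I than in the other cells, and Trp63, Isl1, Eya1, Pax1 and Pax9 were higher. Cells were clustered within each mTEC library and named by markers: mTEC I, which make the chemokine Ccl21a and basal keratins (602 cells in replicate 1 and 1038 in replicate 2), mTEC II, which make Aire (353 in replicate 1, none named in replicate 2), mTEC III, the keratinized cells (93 and 478), and mTEC IV, the tuft cells (9 and 152). Because the clusters were built on all genes, the values are descriptions. Foxn1 was 14.0 CPM in mTEC I of replicate 1, 0.270 of the level in the other mTEC (0.205 to 0.350), and 28.4 CPM in replicate 2, 0.530 of it (0.466 to 0.601). In replicate 1 it was 56.4 CPM in mTEC II and 37.1 CPM in mTEC III, and in replicate 2 it was 35.5 CPM in mTEC III and 16.7 CPM in tuft cells.

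Trp63 was 76.7 and 51.5 CPM in mTEC I of replicates 1 and 2, 4.15-fold and 3.65-fold above the other mTEC. Isl1 was 101 and 75.2 CPM there, 3.67-fold and 3.43-fold above. Eya1 was 38.8 and 34.1 CPM, 2.58-fold and 2.79-fold above. The same direction in smaller size held for Pax1 (1.85-fold and 2.44-fold) and Pax9 (1.52-fold and 1.79-fold). Six4 was 1.07 and 1.14 times as high in mTEC I as in the other mTEC. The 3 mTEC I clusters of replicate 1 (7.78 to 22.9 CPM of Foxn1) did not overlap the 5 other clusters of at least 50 cells (37.1 to 63.6 CPM), but with coarser clusters mTEC III of that replicate, at 12.3 CPM, lay within the mTEC I range. In replicate 2 the 2 mTEC I clusters, at 22.1 and 32.1 CPM, lay within the range of the other 9 (9.09 to 70.7 CPM).

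Outside mTEC I, some clusters stood high for a factor. Keratinized mTEC III of replicate 2 held more Trp63 than the other mTEC (2.25-fold, 1.89 to 2.66), and for those of replicate 1 the interval of the fold was 0.642 to 1.49. Tuft cells of replicate 2 held 142 CPM of Eya1 (122 to 164), 11.1-fold (9.46 to 13.1) above the other mTEC, and 23.5 CPM of Six4, 1.99-fold above (1.34 to 2.85). The 9 tuft cells of replicate 1 held 197 CPM of Eya1 from 10 UMIs. A cluster of 101 cells in replicate 2, led by Car8, Speer4c, Clca3b and Ghrl and left unnamed, held 158 CPM of Isl1 (129 to 191), the highest of that library, with 9.09 CPM of Foxn1 and 10.6 CPM of Trp63, and 1.46-fold more Pax9 than the other mTEC (1.09 to 1.93). A cluster of 96 cells led by Ccl6, Ccl20 and Gp2 had the least Pax1 of that library, 16.3 CPM. With coarser clusters the tuft cells of replicate 1 merged into a cluster of 245 cells at 25.9 CPM of Eya1, while those of replicate 2 stayed at 143 CPM, and Foxn1 in mTEC III of replicate 2 became 48.5 CPM.

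**Figure D5:**
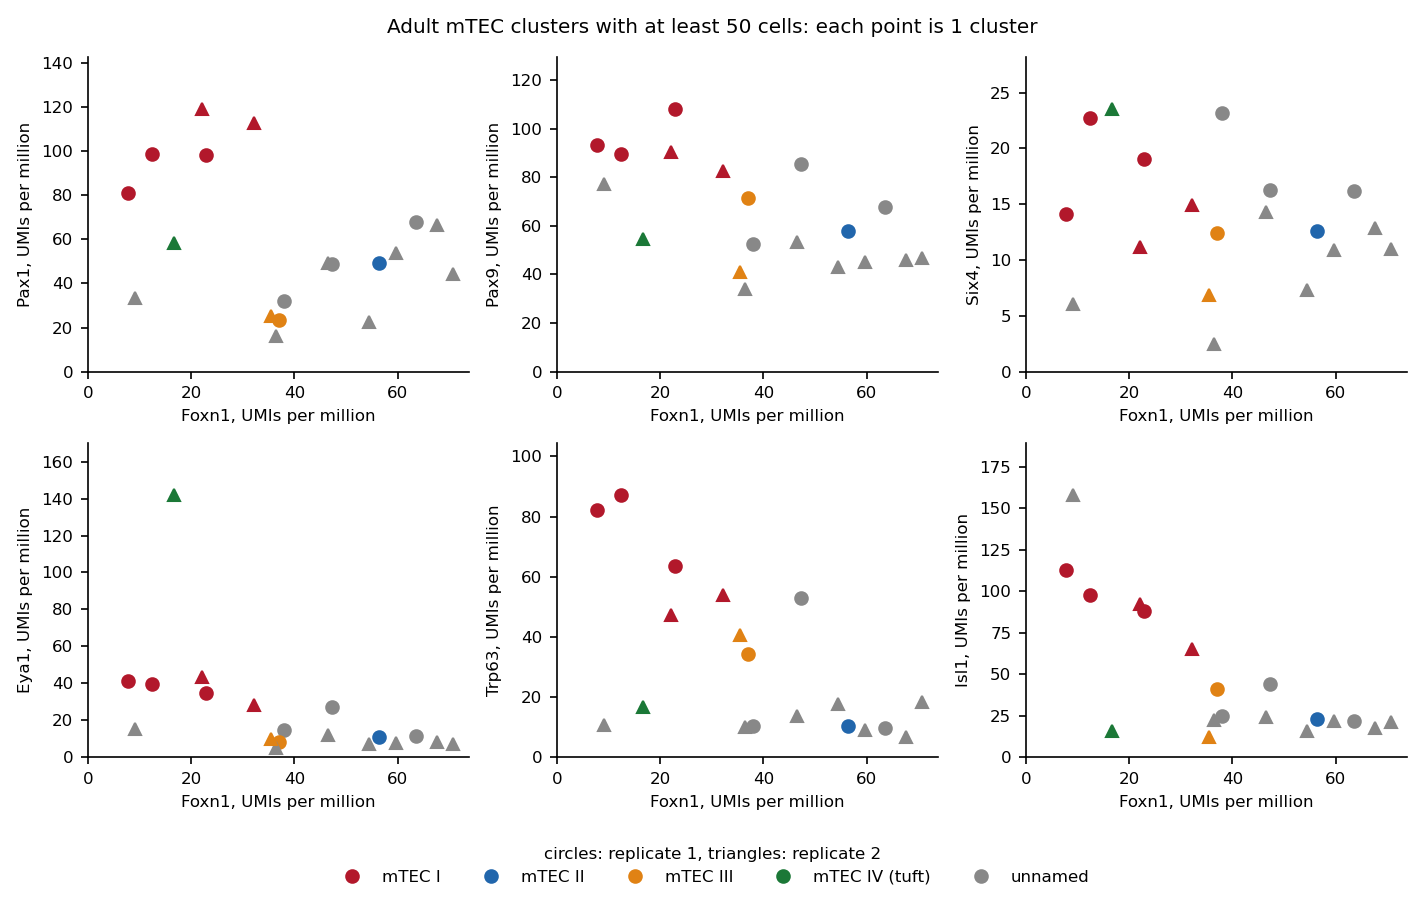
Each point is 1 cluster of at least 50 adult mTEC, with Foxn1 on the horizontal axis and the named factor on the vertical axis, both in CPM; circles are replicate 1, triangles replicate 2, and colors the named subsets. The red mTEC I points lie at 7.78 to 32.1 of Foxn1 and hold most of the highest values of Pax1, Pax9, Trp63 and Isl1, and the green tuft point stands alone at 142 for Eya1.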

How the data were processed

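Sorted TEC were captured on the 10x Chromium v2 platform, which counts transcript ends. The authors deposited raw UMI counts per gene and cell. Per the submitters' processing notes, reads were processed with Cell Ranger 2.0.1, STAR 2.5.1b and bcl2fastq 2.17 on mm10. Data set 1 lists 27998 genes and data set 2 31053, and the 27514 common to both were used. No columns were left unused (0). One protocol label names bone marrow where the tissue label says thymus. Cells with over 5% mitochondrial UMIs or over 5000 genes were left out, no doublet caller was run, and the depth was 2257967 to 90103548 UMIs per library.

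Cells were clustered within each data set and within each mTEC library (2000 variable genes, 20 components, 20 neighbors, Leiden resolution 0.8 or 0.4; leidenalg 0.10.2, igraph 0.11.9, scikit-learn 1.9.0, Python 3.11.15). A name needed at least 3 markers, 50% of its list, at 4-fold (2-fold for mTEC subsets). Parathyroid-like and thymocyte-like cells were left out of levels and fits, and the mixed Hhex and Nkx2-1 cluster was kept. Counts summed per library were tested with edgeR 4.0.16 (quasi-likelihood, robust, TMM, filterByExpr, R 4.3.3), with data set as a term and Benjamini-Hochberg adjustment over all genes, and with DESeq2 1.42.0 as an alternative. The fit was tested on simulated data. Intervals are exact Poisson and binomial and cover counting error only.

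The members and gene lists were chosen with earlier results of these data known. The genes named are the 7 factors, members of 4 lists that passed a test or stood at the ends of a list, and the genes of highest Pearson r with each factor. Genes outside this rule, such as the leading genes of clusters, were named after their values were seen. A few genes of the lists are not reported here by name. The lists of markers and their summed levels are given where they bear on a result.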

Additional observations from a re-analysis of the deposited data

How the results depend on the processing

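The age trend called 1033 genes, and 2736 with DESeq2, 649 with cells of low proliferation score, and 406 with data set 1 only, an alternative added after seeing the data. Without adult cTEC replicate 1 it called 15 genes and without replicate 2 468; the slopes then ran from -0.14 to 0.11 for Eya1 and from -0.14 to 0.08 for Trp63. Rising genes made up 62.3% of the calls, and 76.0% with cells of low proliferation score. Without the E13.5 library 1 member, Pax1, was called; 0 were called under the other alternatives. The slope of Trp63, 0.01, was -0.02 with no filter, -0.02 without the data set block, -0.04 with low proliferation scores, 0.00 with Psmb11 or Prss16 cells only or without the Hhex cluster and -0.23 without E13.5. The lineage comparison called 5278 genes, 2601 with DESeq2, 4219 without the data set block, and 2065 to 2874 with 1 library left out. It called 4 members, 4 without the data set block, and 1 to 4 with 1 library left out, fits that also lack the data set term. The log2 difference of Foxn1 was 0.95 with all deposited cells, 0.92 with low proliferation scores and 1.1 with Psmb11 or Prss16 cells, and passed in each, but the last keeps cTEC by transcripts that go with higher Foxn1 and is no independent sign. Without the block, the log2 differences were 0.89 for Foxn1 (edgeR adjusted p = 0.060), 2.18 for Pax1 (0.039), 2.24 for Eya1 (0.040), 2.45 for Trp63 (0.020) and 1.80 for Isl1 (0.017). Replicate numbers mark data sets, not animals. Of 56 levels, 53 stayed within their interval with all deposited cells, while 55 of 56 shares moved without thinning. Fetal groups have 1 library each, so no single age was tested, and adult cTEC rest on 491 and 535 cells.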

Other observations

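Before adulthood, cells of high proliferation score held less Foxn1 and more Eya1 than the others. Cells with a proliferation score above 0 had 1.77-fold less Foxn1 than the other cells at E13.5, 1.36-fold less at E15.5, 1.31-fold less at E17.5 and 1.37-fold less in NB cTEC. Eya1 was 1.30-fold, 1.28-fold, 1.41-fold and 1.38-fold higher in the same cells. In adult mTEC, Eya1 was lower in cells of high score, at 0.655 and 0.710 of the level in the others, and so was Trp63, at 0.504 and 0.620, while Foxn1 was at 0.944 (0.763 to 1.16) and 0.870 (0.797 to 0.949). Six4 did not differ with the score beyond counting error in any of the 4 libraries up to NB (0.937 to 1.12). With cells split by a UMI of Mki67 or Top2a instead, Foxn1 was 1.44-fold, 1.19-fold, 1.08-fold and 1.15-fold lower and Eya1 1.19-fold, 1.17-fold, 1.15-fold and 1.15-fold higher in the 4 libraries, and 19 of 112 levels left their intervals. Adult cTEC replicate 1 held too few cells of high score to compare. In adult cTEC replicate 2, 489 of 535 cells had a low score, and its folds are not given here. Cells of a library are not replicates, so none of this was tested.

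An E17.5 cluster of 1169 cells carried 1100 CPM of the haemoglobin gene Hbb-bs against 41.8 CPM in the other 7181 cells. Psmb11 was 736 against 1586 CPM and Epcam 450 against 282 CPM there, and their part in the values that follow was not tested. Foxn1 was 76.2 against 119 CPM, Pax1 818 against 966 CPM, Eya1 50.2 against 35.0 CPM and Trp63 116 against 150 CPM. The trend without this cluster, added after seeing the data, called 973 genes and 0 of the 7 factors.

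Over the 8 libraries, the genes whose log2(CPM + 10) followed Foxn1 most closely were Foxo3 (Pearson r 0.982), Taok3 (0.976), Efcab14 (0.976), Zfr (0.970) and Hdac7 (0.969), among 4804 genes reaching 50 CPM. The closest to Pax1 were Fam49b (0.978), Cdc42ep2 (0.955) and the Notch ligand gene Jag2 (0.953). Those closest to Pax9 were Gbas (0.990), Ogt (0.987) and Zfp637 (0.982), and those close to Six4 included Rbm22 (0.987) and Trnau1ap (0.985). Eya1 was followed by Actn4, Gsk3b and Nras (0.983 each), Trp63 by Ltbp3 (0.970), Fto (0.969) and Etnk1 (0.966), and Isl1 by Qk (0.988), Fam3c (0.980) and Klhl9 (0.978). Among the factors themselves, Foxn1 and Trp63 had r of 0.936, and Eya1 and Isl1 0.920. These r share libraries, depth and data set and describe 8 points only.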
